A study of Mus musculus with 48 samples.

Results

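The nuclear-encoded genes of oxidative phosphorylation were followed in the lungs of 48 adult mice. Members were the genes whose symbol names a subunit of complex I (Nduf), complex II (Sdh), complex III (Uqcr), complex IV (Cox) or the ATP synthase (Atp5) and whose level reached 1 FPKM in at least 3 mice. FPKM are fragments scaled to transcript length and library size, so that levels of different genes can be set side by side. Of 47561 genes in the table, 82 had such a symbol and 77 of these were members. The 5 others were Ndufa1, Ndufb11 and Cox7b, 3 genes of chromosome X that the table lists at 0 in all mice and whose levels are therefore not known here, Cox8c, above 0 in 1 mouse, and Cox7b2, above 0 in 3 mice. Complex I had 33 members, complex II 4, complex III 8, complex IV 15 with Ndufa4 counted here, and the ATP synthase 15. Atp5s and Atp5sl, named Dmac2l and Dmac2 in the current RefSeq table, were kept apart. Cox4i1 and the subunits encoded in mitochondrial DNA were not analysed here. No member entered through its response to a treatment.

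The mice were of strain C3H (C3H/hen in the labels) or C57B (C57Bl/6), male (M) or female (F). They were given saline (SAL) or aurothioglucose (ATG, a gold drug known to block thioredoxin reductase) as a single injection of 25 mg/kg, and then kept in room air (RA) or in more than 95% oxygen (hyperoxia, HYP) for 96 h. Each of the 16 combinations had 3 mice and each mouse gave 1 library of whole lung RNA, so that fewer cells of a type and less RNA per cell cannot be told apart. The saline groups rest on the labels, since the description of the series mentions ATG for all mice.

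Oxidative phosphorylation passes electrons from NADH through complex I, or from succinate through complex II, to complex III, cytochrome c and complex IV, where oxygen is reduced. The proton gradient built on the way drives the ATP synthase. In it a ring of c subunits turns with a central stalk, while a peripheral stalk holds the catalytic head in place. Several subunits of complex IV exist in a form found in most tissues and in a form of heart and skeletal muscle, and Cox4i2 is a form known from lung. In lung, high oxygen is known for the reactive oxygen species that the respiratory chain produces.

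The libraries differed more in composition than in depth. Relative depth, read from the size of the smallest values, spanned 1.60-fold, and 28% to 43.2% of the ratios of rarely detected genes lay at the common step. Scgb1a1, a club cell secretory protein, took 10.4% to 30.2% of the FPKM sum in room air and 1.20% to 7.17% in hyperoxia. The members together took 1.24% to 1.71% of that sum in room air and 1.74% to 2.16% in hyperoxia. Mice 1 and 3 of C3HM SAL RA and mouse 4 of C3HM ATG RA had 20766 to 25895 FPKM of the ribosomal RNA gene Rn18s-rs5, against 2651 to 11999 in the other 45 mice, and their median ratio to the average library was 0.784 to 0.902, against 0.897 to 1.10. Without mice 1 and 3, 17 named results were no longer called and 66 kept their call. Gene values without these mice are given for Cox4i2 only.

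Sequence bears on several members, because processed copies of their transcripts lie elsewhere in the genome and reads could have been placed on either. In 19 of the 77 members over 20% of the 30-base stretches of the transcripts also occur in another gene. The coding sequences of Cox7a2l and Cox7c are shown because both differed by strain in the table. Of Cox7a2l the first 240 bases are given. Capitals mark bases inside 30-base stretches that also occur in the listed copies, read from the GENCODE M21 transcripts of GRCm38.
Cox7a2l (chr17:83501918-83517330, minus strand, copy Gm6969 at chr12:24638669-24639010): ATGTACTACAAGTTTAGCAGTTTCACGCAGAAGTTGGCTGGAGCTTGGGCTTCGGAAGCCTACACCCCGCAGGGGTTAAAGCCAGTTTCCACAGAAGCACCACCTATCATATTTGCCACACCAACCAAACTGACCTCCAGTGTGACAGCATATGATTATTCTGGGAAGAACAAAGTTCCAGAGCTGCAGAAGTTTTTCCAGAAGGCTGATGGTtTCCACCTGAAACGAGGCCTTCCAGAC
Cox7c (chr13:86044816-86046904, minus strand, copies Gm12338 at chr11:75599763-75599954, Gm10012 and Gm20091): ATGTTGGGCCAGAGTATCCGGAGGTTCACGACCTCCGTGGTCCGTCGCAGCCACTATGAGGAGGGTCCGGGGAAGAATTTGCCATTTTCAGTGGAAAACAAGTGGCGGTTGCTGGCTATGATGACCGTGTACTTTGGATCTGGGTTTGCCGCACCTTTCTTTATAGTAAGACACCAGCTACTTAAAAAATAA
Of the 336 coding bases of Cox7a2l 334 were in capitals, and of the 192 of Cox7c 192. The 441 coding bases of Atp5g2 were likewise all covered by Gm10175 and Gm10231. Where reads of copies are added below, they were not counted but derived from FPKM with weighting by transcript length.

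The levels of the members spanned 3.71 FPKM (Atp5s) to 624.5 FPKM (Atp5b) as the mean of the 16 group means, with a median of 86.6. A level over 100 FPKM was reached by 34 members and 2 were under 10. Atp5b, the catalytic beta subunit of the ATP synthase (ENSMUSG00000025393, chr10:128083273-128090391), stood highest, before Cox6a1 at 582 FPKM, Atp5e at 494 FPKM and Cox8a at 466 FPKM. Atp5l was listed at 6.34 FPKM, and 85.4% of its 30-base stretches occur in other genes.

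The first question was what hyperoxia did to these genes in saline mice. Of the 77 members, 27 were higher and 17 lower in hyperoxia (limma on log2(FPKM + 1), Benjamini-Hochberg adjusted p under 0.05), beside 31.8% of all genes higher and 28.3% lower. The median log2 change of the members was 0.03, against 0.01 over all 16321 genes tested. The share of members called was thus near that of all genes, and no common direction of the members stood out from it. The split depended on scaling, with 17 higher and 29 lower after quantile normalization. In each of 3 scalings the same 17 members were higher and the same 17 lower, and no member was called in opposite directions. In 6 members every hyperoxia mouse lay apart from every room air mouse, beside 7.74% of all genes. By strain, C3H mice had 25 members higher and 10 lower, beside 25.3% and 12.5% of all genes, and C57B mice 20 higher and 21 lower, beside 25.5% and 30% of all genes. Transcripts of the 27 risers had a median length of 1249 bases and those of the 17 fallers 733, whereas over all genes the medians were 2835.5 and 2627.5. In ATG mice, described further on, the medians were 1079 and 763 bases for members and 2554 and 3047 over all genes, so that the order over all genes was the other way round.

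Markers of several cell types moved in the same comparison. From SAL RA to SAL HYP the median summed level went from 35977 to 10894 FPKM for 7 alveolar type 2 markers, of which 6 fell and 1 rose, and from 663 to 163 FPKM for 6 ciliated cell markers, of which 4 fell. It went from 12453 to 605 FPKM for 4 red cell markers, of which 3 were tested and fell. It went from 353 to 992 FPKM for 6 macrophage markers, of which 5 rose and 1 fell, and from 269 to 867 FPKM for 5 neutrophil markers, which all rose. The part of these cells in the changes of the members was not tested.

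The ATP synthase was divided by its parts. Atp5b had 280 FPKM in the lowest, 445 in the median and 557 in the highest of the 12 SAL RA mice, and 643, 823 and 955 in the 12 SAL HYP mice. Every mouse in hyperoxia was above every mouse in room air, a rise of 1.84-fold (log2 change 0.88 ± 0.07 SE, limma adjusted p = 1.93e-09). The head subunit Atp5a1 (log2 change 0.53) and the central stalk subunits Atp5c1 (0.44) and Atp5d (0.56) rose as well. The central stalk subunit Atp5e and the peripheral stalk subunit Atp5o were not among the members called alike in every scaling. Atp5h, a subunit of the peripheral stalk, ranged from 57.6 to 162 FPKM in SAL RA with a median of 81.2, and from 41.3 to 78.5 in SAL HYP with a median of 56.8. These ranges overlapped, and Atp5h fell by 0.58 ± 0.12 on the log2 scale (limma adjusted p = 0.000308). With the reads of its copies added, the log2 change was -0.50. Of the same stalk, Atp5j fell (-0.50) and Atp5f1 rose (0.46). The ratio of Atp5b to Atp5h within a mouse, which a single factor per library does not change, was 1.73 to 7.95 in SAL RA and 9.15 to 22.2 in SAL HYP, without overlap. The pair was chosen after its values were seen and the ratio was not tested. The c subunit genes Atp5g1, Atp5g2 and Atp5g3, whose products are the same mature protein, were not called in saline mice (log2 changes 0.15, -0.15 and 0.17).

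**Figure D1:**
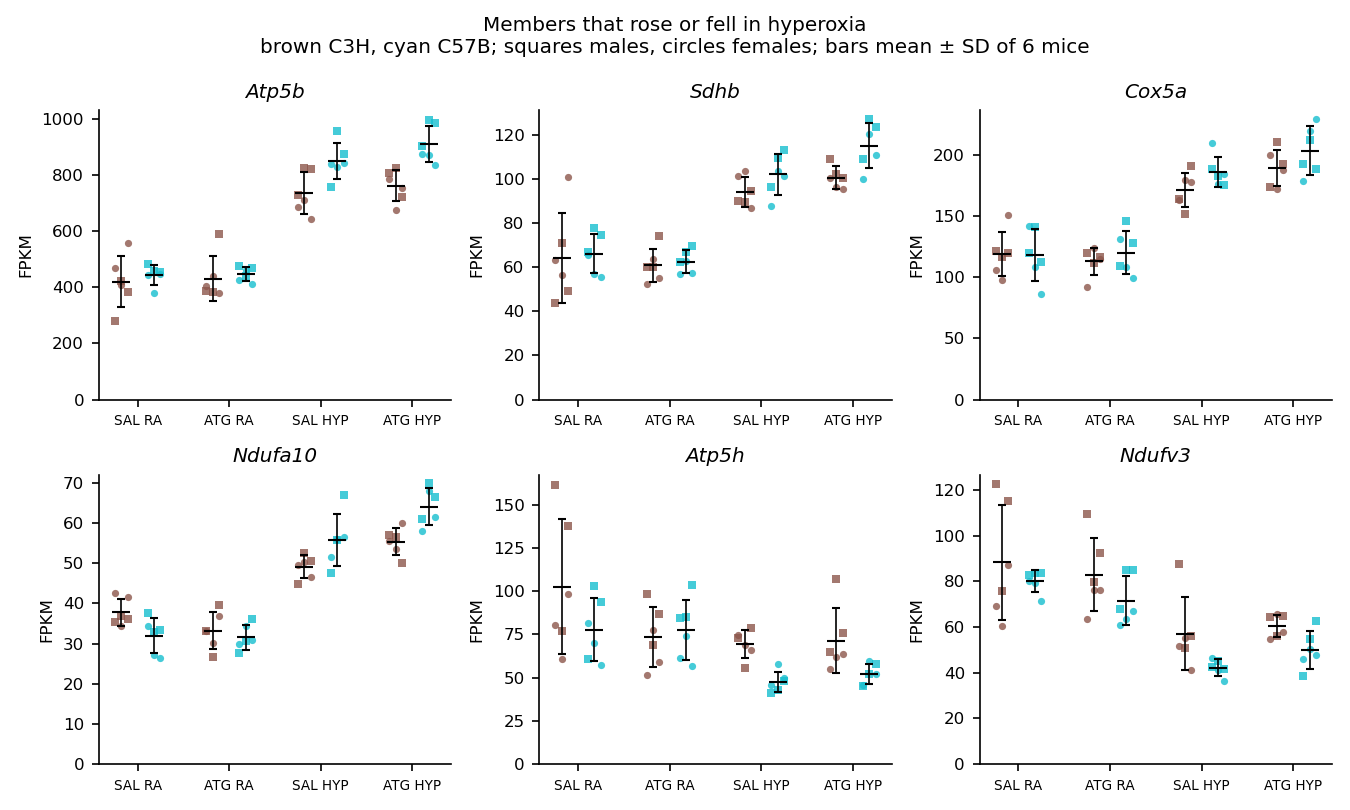
FPKM (vertical axes, from 0) of 6 members in each of the 48 mice, by treatment (horizontal axis), with squares for males and circles for females. Horizontal bars and whiskers are the mean ± SD of 6 mice of a strain; Atp5b, Cox5a and Ndufa10 in hyperoxia lie above the room air mice given the same injection, whereas Atp5h and Ndufv3 lie lower with overlap.

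Complex II rose in 3 of its 4 subunits, beside 31.8% of all genes higher. Sdhb, the iron-sulphur subunit, had 43.6 to 101 FPKM in SAL RA (median 64.3) and 86.9 to 113 in SAL HYP (median 98.8). Its change was 1.53-fold (log2 change 0.61 ± 0.09, limma adjusted p = 6.69e-06). The membrane anchors Sdhc (0.28) and Sdhd (0.49) rose too, but after quantile normalization Sdhc had a log2 change of 0.096 and was not called (limma adjusted p = 0.189). Sdha, the flavoprotein, had a log2 change of 0.19 ± 0.09 that was not called (limma adjusted p = 0.0924).

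In complex III, 4 of 8 members rose and 2 fell, beside 31.8% and 28.3% of all genes. The core protein Uqcrc1 rose by 1.40-fold, and the Rieske iron-sulphur protein Uqcrfs1 had a log2 change of 0.40. The hinge protein Uqcrh (-0.39) and the small subunit Uqcr11 (-0.29) were those that fell.

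In complex I, 10 of 33 members rose and 7 fell, a share near the 31.8% and 28.3% of all genes. Among its core subunits, which carry the redox centres, Ndufv1 (0.31) and Ndufs3 (0.20) rose and Ndufs7 (-0.25) fell. With the reads of its copies added, Ndufs3 had a log2 change of 0.15 and was not called (limma adjusted p = 0.0507). After quantile normalization neither Ndufs3 (0.082, limma adjusted p = 0.360) nor Ndufv1 (0.14, limma adjusted p = 0.0585) was called. Ndufs1 (0.14) and Ndufv2 (0.16) were not called. The largest rise of complex I was that of the accessory subunit Ndufa10, from 26.4 to 42.5 FPKM in SAL RA to 44.9 to 67.0 in SAL HYP, with no overlap (log2 change 0.58 ± 0.06, limma adjusted p = 1.62e-07). The largest fall was that of Ndufv3, an accessory subunit of the NADH-oxidising module (chr17:31520115-31531331). It had 60.3 to 122 FPKM in SAL RA and 36.1 to 87.8 in SAL HYP, a change of -0.76 ± 0.10 (limma adjusted p = 1.08e-06). Ndufb3, an accessory subunit of the membrane arm, fell from a median of 88.0 to 53.9 FPKM (-0.63 ± 0.09, limma adjusted p = 2.69e-06), with overlap. Ndufb10 (-0.55) and Ndufa3 (-0.53) fell as well. Ndufa12 rose from a median of 39.9 to 55.9 FPKM (log2 change 0.51).

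The largest changes of all were in complex IV, in the tissue forms. Cox4i2 (ENSMUSG00000009876, chr2:152754173-152765037) had 51.6 FPKM in the lowest, 76.2 in the median and 169 in the highest SAL RA mouse, and 10.3, 15.9 and 52.6 in SAL HYP. It fell by 1.95 ± 0.13 on the log2 scale (limma adjusted p = 2.05e-10). Higd1b, a pericyte marker, moved with it, from a median of 33.4 to 4.49 FPKM, and Spearman's rho between both genes was 0.79 over the 24 room air mice and 0.71 over the 24 in hyperoxia. Of the 7 pericyte markers listed, 3 fell, 1 rose and 3 were not called, and their summed level ranged from 48.8 to 105 FPKM in SAL RA and from 25.1 to 62.2 in SAL HYP. None of these markers was under 1 FPKM in every mouse, and their part in the fall of Cox4i2 was not tested. The rho values are descriptions over mice of mixed strain and sex.

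The heart and skeletal muscle forms Cox7a1 and Cox8b fell by 2.19 ± 0.39 and 2.41 ± 0.39 on the log2 scale (limma adjusted p = 7.63e-05 and 2.37e-05). Cox7a1 had 5.95, 16.5 and 97.2 FPKM as the lowest, median and highest value in SAL RA, and 0, 3.37 and 8.14 in SAL HYP. Cox8b had 2.61, 18.7 and 62.6 FPKM, and 0, 2.20 and 17.4. The highest levels were in a few room air lungs, with 97.2 FPKM of Cox7a1 in mouse 27 of C3HF SAL RA and 82.7 in mouse 6 of C3HM ATG RA. The same mice had the highest levels of Tnni3, cardiac troponin I, at 200 and 135 FPKM. Over the 24 room air mice, rho with Tnni3 was 0.83 for Cox7a1 and 0.71 for Cox8b. Over the 24 in hyperoxia it was 0.15 for Cox7a1 and 0.12 for Cox8b. Of 10 cardiac muscle markers, 9 were tested and 8 fell in hyperoxia, and their summed level was 31.1 to 1895 FPKM in SAL RA and 16.9 to 115 in SAL HYP. Their part in the fall of Cox7a1 and Cox8b was not tested.

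Cox6a2, another muscle form, went the other way. It had 9.46, 30.5 and 81.3 FPKM as the lowest, median and highest in SAL RA and 27.3, 65.9 and 106 in SAL HYP, a rise of 2.21-fold (log2 change 1.14 ± 0.23, limma adjusted p = 0.000214). Its rho with Tnni3 was 0.60 in room air and -0.05 in hyperoxia. Itgad, which overlaps it, was at most 0.421 FPKM. The ubiquitous partners Cox6a1 (0.52), Cox7a2 (0.37) and Cox8a (0.39) rose, while Cox6b1 had a log2 change of -0.01 and was not called. Cox5a, a subunit present in all tissues, rose from 86.2 to 151 FPKM to 152 to 209, without overlap.

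**Figure D2:**
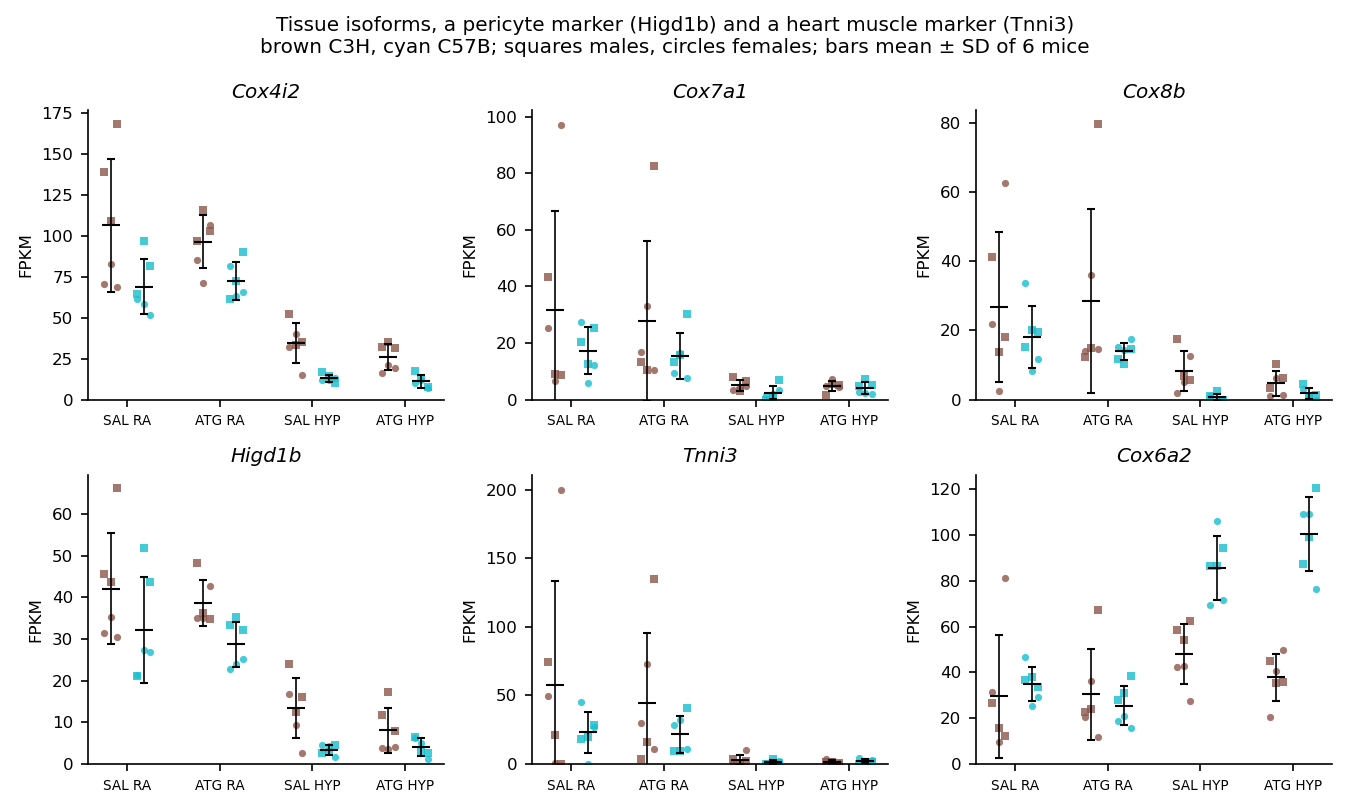
FPKM (vertical axes, from 0) of Cox4i2, Cox7a1, Cox8b and Cox6a2 with the markers Higd1b and Tnni3 in each of the 48 mice, by treatment, strain (colour) and sex (shape), with mean ± SD of 6 mice and whiskers cut at 0. Cox4i2 and Higd1b were low in hyperoxia, Cox7a1, Cox8b and Tnni3 were high in few room air mice, and Cox6a2 was higher in hyperoxia.

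The 24 ATG mice gave the same contrast in other animals. Here 49 members were higher and 9 lower in hyperoxia, beside 35.8% and 26% of all genes, and their median log2 change was 0.32 against 0.06 over all genes. Quantile normalization gave 33 higher members and 17 lower ones, and in each of 3 scalings the same 33 were higher and the same 9 lower. All 27 members that rose in saline mice rose here, and 9 of the 17 that fell. Over all genes, 86.3% of the rises and 75.2% of the falls in saline mice were called the same way in ATG mice. Atp5b had 380 to 589 FPKM in ATG RA and 677 to 994 in ATG HYP (log2 change 0.93 ± 0.06, limma adjusted p = 7.79e-11). The ratio of Atp5b to Atp5h was 3.92 to 7.80 in ATG RA and 7.70 to 20.0 in ATG HYP.

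In complex I, 21 of 33 members were higher and 2 lower, beside 35.8% and 26% of all genes. Among its core subunits Ndufs1 (0.35) and Ndufv2 (0.40) rose, and Ndufs7 had a log2 change of 0.07. Ndufs8 also rose (0.14), but its change was -0.055 after quantile normalization. Complex II again rose in 3 of 4 members and complex III in 6 of 8, against the same 35.8%. Ndufa12 (0.75), Atp5f1 (0.73) and Cox7c (0.75) were among the largest rises, and Ndufb3 (-0.29), Atp5s (-0.26) and Atp5j (-0.22) among the falls. With the reads of its copies added, the rise of Cox7c was 0.37. The c subunit genes Atp5g1 (0.47) and Atp5g3 (0.32) rose, but after quantile normalization Atp5g3 had a log2 change of 0.061 and was not called (limma adjusted p = 0.353). Cox4i2 fell by 2.26, Cox8b by 2.44 and Cox7a1 by 1.82 on the log2 scale, and in these 3 genes the ATG RA and ATG HYP mice did not overlap. Over all members 21 were without overlap, beside 12.9% of all genes.

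**Figure D3:**
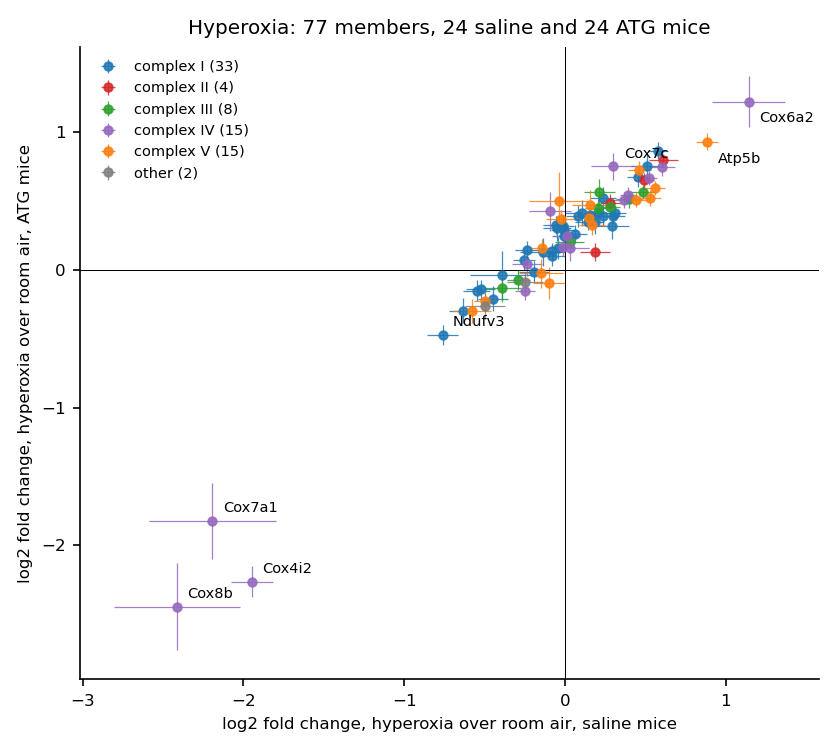
Log2 fold change of hyperoxia over room air for the 77 members in saline mice (horizontal axis) and in ATG mice (vertical axis), with standard errors as bars and complexes by colour. Cox4i2, Cox7a1 and Cox8b lie far below 0 and Cox6a2 and Atp5b highest in both.

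Genes that serve these complexes were taken from a list. Of 50 assembly factors, 15 rose and 15 fell in saline mice, close to the 31.8% and 28.3% of all genes, with Coa7 (1.24), Ndufaf4 (0.92) and Cox10 (0.91) as the largest rises and Pet100 (-0.87), Tmem126b (-0.85) and Coa4 (-0.75) as the largest falls. In ATG mice 27 rose and 6 fell, beside 35.8% and 26% of all genes. Of 11 regulators of mitochondrial biogenesis tested, 6 rose and 1 fell in saline mice, beside 31.8% and 28.3% of all genes. Nrf1, a transcription factor of respiratory genes, had a log2 change of 0.92 ± 0.10 (limma adjusted p = 9.65e-08), and the coactivators Pprc1 and Ppargc1a changed by 0.82 and 0.73. Tfb1m was the regulator that fell (-0.44). Its change differed by strain, with a C3H minus C57B difference of 1.20 on the log2 scale (limma interaction adjusted p = 0.00952). The changes of Tmem126b (0.73, limma adjusted p = 0.0324) and Coa4 (0.96, limma adjusted p = 0.0321) differed by strain in the same direction. So did those of the assembly factors Atpaf1 (0.97), Sdhaf4 (0.71), Surf1 (0.67), Bcs1l (0.66) and Coa3 (0.61). That of Sco2 (-0.40) differed the other way. Over all genes, 8.71% had a more positive and 2.81% a more negative change in C3H. In ATG mice none of these strain differences was called. The values were 0.45 for Tfb1m, 0.29 for Tmem126b and 0.40 for Coa4 (limma adjusted p = 0.0998, 0.184 and 0.271). Tfam, which binds mitochondrial DNA, had a log2 change of 0.17 in saline mice and was not called. Of 9 subunits and carriers outside the rule, Cyc1, cytochrome c1 of complex III, changed by 0.80 and Ndufa4l2, a relative of Ndufa4, by -1.57. Etfdh (0.35) also rose, and Atpif1, an inhibitor of the ATP synthase, (-0.61) and Etfb (-0.40) fell.

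Promoters of 65 members were in the RefSeq table of GRCm38.p6, as 71 windows from 250 bases before to 50 after a start. The 9 letters GCGCATGCG of the NRF1 element, searched on both strands, were in 11.3% of the members' windows and in 1.75% of all 32851 windows. AAGATGGCG (YY1) was in 12.7% and 1.4%, CCGGAAGT (ETS) in 7.04% and 3.89%, and TCAAGGTCA (ERR) in 2.82% and 0.423%. Stretches upstream of the start are shown for a member that rose (Cox6a1), for the member with the largest strain difference (Atp5g2) and for a member that fell (Atp5h), with the match in capitals, where GCGCATGCG matches on both strands at neighbouring bases. They are a description of letters and do not mark a bound site.
Cox6a1 (chr5:115349086-115349145, minus strand): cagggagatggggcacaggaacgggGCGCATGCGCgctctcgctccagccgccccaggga
Atp5g2 (chr15:102671055-102671114, minus strand): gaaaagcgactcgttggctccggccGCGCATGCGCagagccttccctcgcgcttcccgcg
Atp5h (chr11:115419924-115419983, minus strand): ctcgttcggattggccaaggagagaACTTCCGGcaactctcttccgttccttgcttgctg

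Whether strains differed in the response to hyperoxia was tested as an interaction. In saline mice it was called for 5 members, 4 of them with the more positive change in C3H, beside 8.71% of all genes with the more positive and 2.81% with the more negative change. In ATG mice it was called for 4 and 1 members, beside 8.27% and 5.04% of all genes. The saline counts ranged from 2 to 7 and from 0 to 3 when single mice were left out, with 7 without mouse 27 of C3HF SAL RA and 3 without mouse 2 of C3HM SAL RA. Cox6b2, a form of Cox6b1 known from testis (chr7:4751792-4753094), changed in opposite directions. In C3H it had 21.6, 25.4 and 35.2 FPKM as the lowest, median and highest of 6 SAL RA mice and 25.6, 40.0 and 54.4 in SAL HYP. In C57B it had 20.7, 32.3 and 43.2 FPKM in SAL RA and 11.4, 17.7 and 28.7 in SAL HYP. The log2 changes were 0.58 and -0.77, the first of which was 0.43 and not called under either other scaling. Their difference was 1.36 ± 0.26 (limma adjusted p = 0.0028). In the separate ATG mice the difference was 1.03 ± 0.29 (limma adjusted p = 0.0217). Ndufs8, a core subunit of complex I, was the other member called in both tests, with differences of 0.49 and 0.43. Ndufb2 (0.60) and Ndufc2 (0.51) in saline mice and Ndufa10 (-0.42) were the others called there. After scaling by median ratios the saline interactions of Ndufb2 (0.40), Ndufc2 (0.31) and Ndufs8 (0.30) were not called (limma adjusted p = 0.0824, 0.259 and 0.132). Those of Cox6b2 and Ndufa10 were called in each scaling. Without mice 1 and 3 the saline counts were 2 and 0, and Ndufa10 was not called. Cox6a2 rose more in C57B among ATG mice (difference -1.52 ± 0.37, limma adjusted p = 0.0105). It had 76.4 to 120 FPKM in the 6 C57B mice in ATG HYP and 20.5 to 49.7 in the C3H mice. In saline mice that difference was -0.28 and was not called (limma adjusted p = 0.731).

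The interaction of sex with hyperoxia was called for 0 of 77 members (limma, beside 0.0306% of all genes higher and 0.00613% lower), and 10 members had an unadjusted p under 0.05, beside 18.2% of all genes. Without mouse 2 of C3HM SAL RA, 2 members were called higher and 5 lower.

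ATG was compared with saline in each air. In room air 0 members were called by limma, beside 0.0123% of all genes higher and 0.00616% lower, and 1 had an unadjusted p under 0.05, beside 6.64%. In hyperoxia 15 members were higher with ATG and 0 lower, beside 3.89% and 1.58% of all genes. This count was 3 after scaling by median ratios and 9 after quantile normalization, and the median log2 change of the members was 0.14 against 0.05 over all genes. Leaving out mouse 8 of C3HM SAL HYP left 9. In the same comparison 3 of 6 macrophage markers were lower with ATG (Ear2 -1.11, Chil3 -0.83, Mrc1 -0.43), as were 2 of 6 endothelial markers (Tek -0.41, Pecam1 -0.32). Higher were 1 of 5 T cell markers (Lck 0.45), 1 of 5 proliferation markers (Top2a 0.54) and 1 of 5 alveolar type 1 markers (Pdpn 0.36). Their part in the members' changes was not tested. The 3 members called in each scaling were the accessory complex I subunits Ndufa3, Ndufa7 and Ndufb2. Ndufa3 had 117, 149 and 191 FPKM as the lowest, median and highest in SAL HYP and 155, 190 and 210 in ATG HYP, ranges that overlap, as they did in each of the 77 members, beside 0% of all genes without overlap (log2 change 0.34 ± 0.06, limma adjusted p = 0.0075). Ndufa7 changed by 0.28 and Ndufb2 by 0.28. The largest change was that of Cox7c at 0.42 ± 0.10 (limma adjusted p = 0.0213). With the reads of its copies added, Cox7c had a log2 change of 0.19 and was not called (limma adjusted p = 0.0817). Atp5e (0.29), Ndufs4 (0.26), Atp5f1 (0.23) and Ndufs8 (0.23) were called too, but not after scaling by median ratios. The test of whether the ATG effect differed by air called Ndufa7, Ndufa13 and Ndufb10, all more positive in hyperoxia, beside 1.56% of all genes with a more positive and 1.21% with a more negative effect, and 0 members after scaling by median ratios. It also called 0 without mice 1 and 3 together, 14 without mouse 2 of C3HM SAL RA, and 0 without any one of mice 5, 8, 14, 16, 24, 27, 37 or 42.

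The strains were compared in the 12 SAL RA mice and, separately, in the other 36. At baseline 2 members were higher in C3H and 2 in C57B, beside 3.92% and 7.87% of all genes, and all 4 were called the same way in the other mice. Over all genes this held for 84.3% of the calls higher in C3H and 62.7% of those lower. Without mouse 2 of C3HM SAL RA the baseline counts were 6 and 6. The strains did not overlap at baseline in 3 members, beside 5.98% of all genes, and in the other mice in 2, beside 1.15%. There, 22 members were higher in C3H and 11 lower, beside 21.6% and 19.7% of all genes.

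Atp5g2 (chr15:102662864-102672352), which encodes the c subunit, was far higher in C3H. It had 33.3, 52.4 and 65.2 FPKM as the lowest, median and highest of 24 C3H mice and 0.290, 1.72 and 3.80 in 24 C57B mice. The baseline difference was 4.08 ± 0.19 on the log2 scale (limma adjusted p = 5.73e-08) and 4.35 ± 0.09 in the other mice. An exact permutation test of the 6 against 6 baseline mice gave p = 0.00216, two-sided, the smallest that this design allows, and the same p for Cox7a2l and Cox7c. This test used the same mice as limma, without adjustment for the choice of genes, and is no separate support. With the reads of its copies added, the baseline difference of Atp5g2 was 4.06. Atp5g2 made up 8.99% to 17.6% of the summed FPKM of the 3 c subunit genes in C3H and 0.0912% to 1.20% in C57B. Atp5g3, the most abundant of them, had a median of 292 FPKM in C3H and 279 in C57B and was not called at baseline (limma adjusted p = 0.626).

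Cox7a2l, which takes part in joining complexes III and IV into supercomplexes, was lower in C3H, with 56.4 to 94.8 FPKM against 97.6 to 159 in C57B and no overlap over all 48 mice. The log2 difference was -0.61 ± 0.07 at baseline (limma adjusted p = 0.000157) and -0.69 ± 0.05 in the other mice. Its copy Gm6969 went the other way, with 48.8 to 160 FPKM in C3H and 24.4 to 59.5 in C57B. At baseline the mean FPKM of Cox7a2l was 89.0 in C3H and 137 in C57B, and that of Gm6969 114 and 43.5. The plain sum of these FPKM was higher in C3H, so the direction of a combined value depends on the weighting by transcript length. With the reads of Gm6969 added to those of Cox7a2l, the baseline difference was -0.28 and was not called (limma adjusted p = 0.0592), and that in the other mice was -0.24 (limma adjusted p = 0.000163). In hyperoxia Cox7a2l had a log2 change of -0.25 in saline mice (limma adjusted p = 0.00148) and of -0.16 in ATG mice (limma adjusted p = 0.0341), and with the reads of Gm6969 added the latter was -0.10 and was not called. Cox7a2l is known for an allele of C57BL/6 mice that encodes a shorter protein, which values per gene do not show.

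Cox7c, a small subunit of complex IV, had a median of 17.2 FPKM in C3H and 38.3 in C57B. Its log2 difference was -1.16 ± 0.20 at baseline (limma adjusted p = 0.00262). Its copy Gm12338 was listed far higher, at 303 to 976 FPKM in C3H and 374 to 689 in C57B. With the copies' reads added, the difference of Cox7c was -0.09 at baseline (limma adjusted p = 0.784) and -0.09 in the other mice. 

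Cox4i2 was higher in C3H by 0.57 ± 0.13 at baseline (limma adjusted p = 0.0129) and by 0.94 ± 0.11 in the other mice. The baseline groups overlapped, at 68.9 to 169 FPKM in C3H and 51.6 to 97.1 in C57B, and without mice 1 and 3 the difference was 0.41 (limma adjusted p = 0.0880). The exact permutation test of the 6 against 6 baseline mice gave p = 0.0606, two-sided. In the other mice Cox8b (1.32), Cox6b2 (0.49), Atp5k (0.38) and Ndufb7 (0.33) were also higher in C3H and Cox6a2 (-0.72) lower. At baseline none of these 5 was called.

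**Figure D4:**
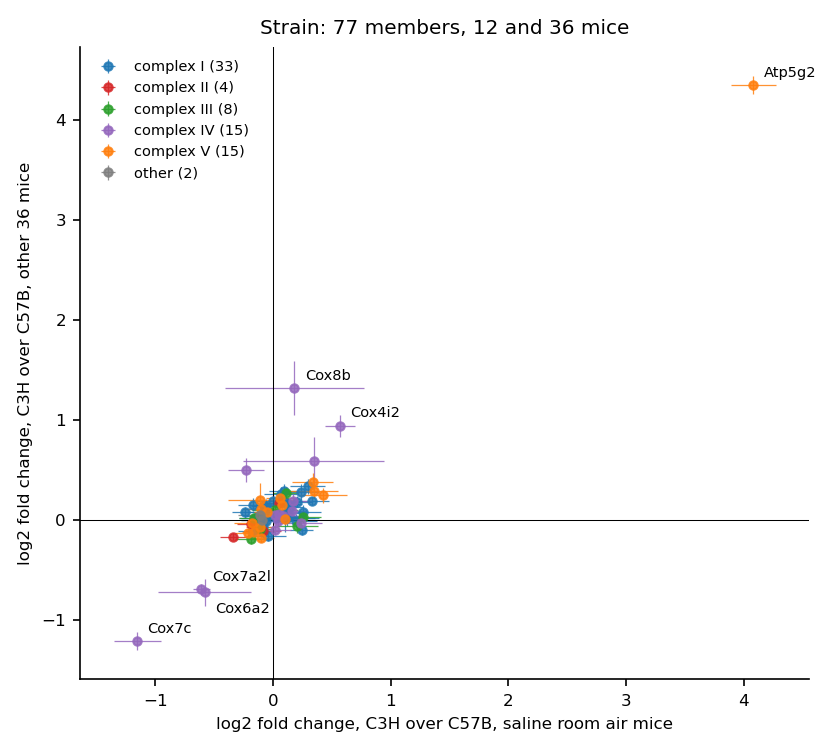
Log2 fold change of C3H over C57B for the 77 members in the 12 saline room air mice (horizontal axis) and in the other 36 mice (vertical axis), with standard errors as bars and complexes by colour. Atp5g2 stands above 4 on both axes, and Cox7c and Cox7a2l lie below 0 on both.

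**Figure D5:**
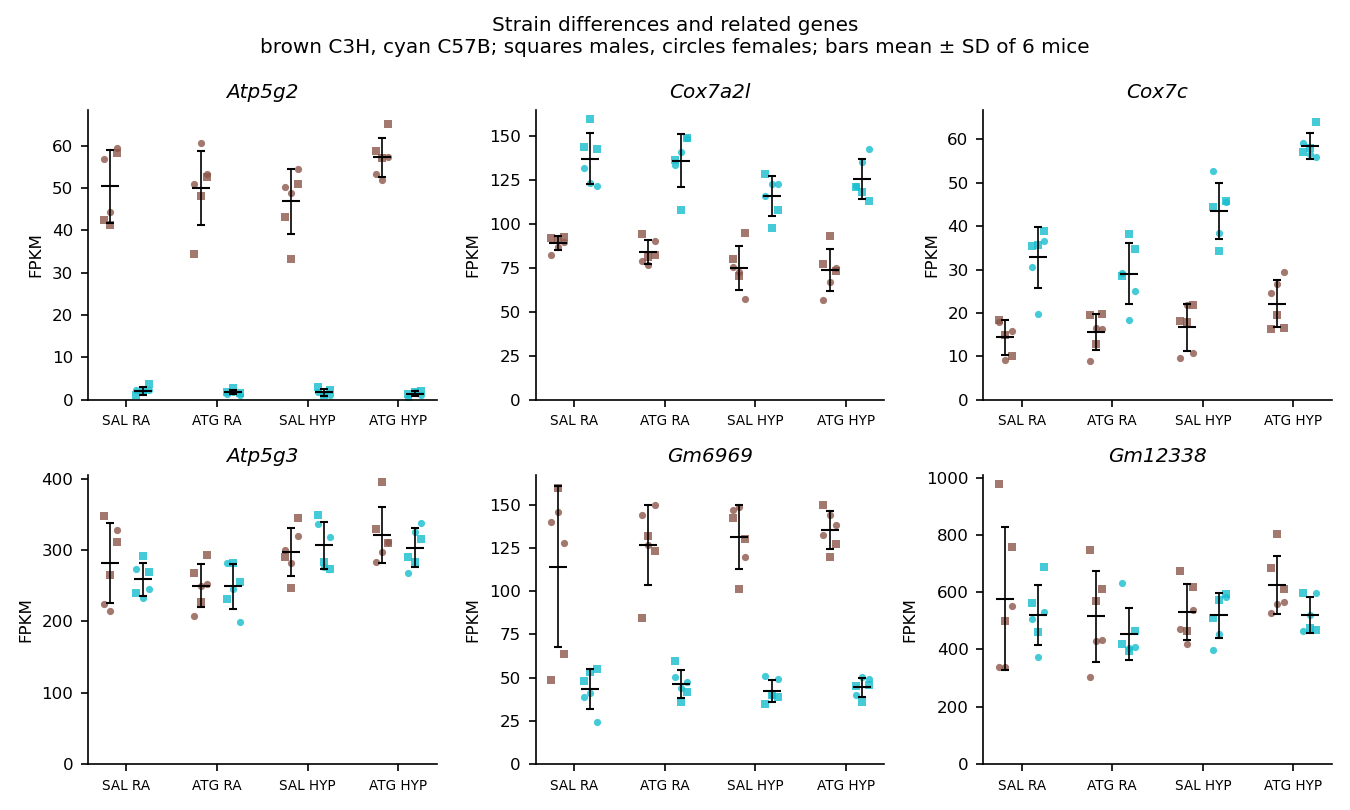
FPKM (vertical axes, from 0) of Atp5g2, Cox7a2l, Cox7c and Atp5g3 and of the copies Gm6969 and Gm12338 in each of the 48 mice, by treatment, strain (colour) and sex (shape), with mean ± SD of 6 mice. Cox7a2l was lower and Gm6969 mostly higher in C3H, whereas Gm12338 was at least 303 FPKM in every mouse.

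Between the sexes at baseline, Cox4i2 was the member called. It had 64.8, 103 and 169 FPKM as the lowest, median and highest of 6 males and 51.6, 65.1 and 82.9 in 6 females (log2 difference 0.68 ± 0.13, limma adjusted p = 0.0413), beside 0.238% of all genes higher and 0.431% lower in males. Without mice 1 and 3, both C3HM, it was 0.52 and was not called (limma adjusted p = 0.172). Without mouse 2 of the same group, which left only mice 1 and 3 in it, 24 members were higher in males and 3 lower.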

How the data were processed

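Lung RNA of 48 mice was sequenced after polyA selection. The authors deposited 1 table of FPKM values, with a value per gene and mouse, made with GSNAP on mm10, SAMtools and Cufflinks per the labels. The mm10 reference comes from C57BL/6J. Read counts and the handling of reads with several matches are not given in the sources used here. Absolute depth is unknown, so no counting error is given. The members and gene lists were chosen with earlier results of these data known.

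Group means of log2(FPKM + 1) were modelled in limma 3.58.1 (R 4.3.3, eBayes with trend) over genes at 1 FPKM or more in at least 3 fitted mice, with Benjamini-Hochberg adjustment of p-values across every gene tested. Fold changes on this scale understate those of low genes. Fits used the saline, ATG, room air, hyperoxia, baseline, other 36 or all 48 mice. Named were, per comparison, up to 8 rises and 8 falls of called members, the core, complex II, c subunit and tissue-form genes, Cox7a2l, and, in the main hyperoxia comparison, the largest changes of other lists. Not each of these genes is given in each comparison. Akap5, with failed estimates, was left out. One of the members always named by this rule is not reported here. Coordinates are from GENCODE M21. Fits were tested on simulated data, where the share of calls required was set for log2 changes of 1 after a first run. Smaller changes had no such requirement. Alternatives were other pseudocounts, filters and scalings, a fit without trend or of all mice, members of shared sequence left out, and mice left out.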

Additional observations from a re-analysis of the deposited data

Results flagged for a closer look

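In 104 groups of 6 mice (13 tissue forms, partners, c subunit genes and Cox7a2l, by strain and treatment), 4 values stood far from the rest of their group by Dixon's ratio, and chance flags about 1 group in 20. They were Cox7a2l at 107.6 FPKM in mouse 17 of C57BM ATG RA, Cox6a2 at 81.3 FPKM in mouse 27 of C3HF SAL RA, and Cox7a1 at 82.7 and Cox8b at 79.6 FPKM in mouse 6 of C3HM ATG RA.

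The response to hyperoxia differed between strains in saline mice (C3H minus C57B, log2, limma interaction) for Cox6b2 (1.36), Ndufb2 (0.60), Ndufc2 (0.51), Ndufs8 (0.49) and Ndufa10 (-0.42). In ATG mice it differed for Cox6b2 (1.03), Cox4i2 (0.74), Atp5e (0.46), Ndufs8 (0.43) and Cox6a2 (-1.52). The ATG effect was more positive in hyperoxia than in room air for Ndufb10 (0.40), Ndufa7 (0.38) and Ndufa13 (0.38). After scaling by median ratios none of these ATG effects was called. Nor were the strain interactions of Ndufb2, Ndufc2 and Ndufs8 in saline mice or of Cox4i2 and Atp5e in ATG mice.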

How the results depend on the processing

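No paired analysis was possible because each mouse has its own number. Counts of members are given as higher and lower. Hyperoxia in saline mice gave 17 and 29 with quantile normalization, and in ATG mice 17 lower. Hyperoxia by strain gave 2 higher with either looser filter, 1 higher with median ratio scaling, and 2 and 0 without a variance trend or without mice 1 and 3. ATG in hyperoxia gave 9 higher with quantile normalization, 3 with median ratio scaling and 8 in the fit of all 48 mice. ATG by air gave 1 with quantile normalization, 0 with median ratio scaling and 0 without mice 1 and 3. Strain at baseline gave 4 higher in the fit of all 48 mice, 1 and 0 without members of shared sequence, 1 higher without mice 1 and 3, and 0 lower with the reads of related genes added, an alternative chosen after the data were seen. Sex at baseline gave 0 with either looser filter, without a trend or without mice 1 and 3, and 19 in the fit of all 48 mice. After quantile normalization Cox6b1 (-0.10) and Ndufs8 (-0.055) turned in hyperoxia in ATG mice, without being called. The causes were not tested. Leaving out each mouse gave, as ranges, 25 to 32 and 16 to 20 for hyperoxia in saline mice, 45 to 50 and 8 to 10 in ATG mice, 2 to 7 and 0 to 3 by strain, 0 to 2 and 0 to 5 by sex, 0 and 0 for ATG in room air, 9 to 21 and 0 in hyperoxia, 0 to 14 and 0 for ATG by air, 2 to 6 and 2 to 6 for strain at baseline, 21 to 25 and 10 to 12 in the other mice, and 0 to 24 and 0 to 3 for sex at baseline. Leaving out mouse 2 of C3HM SAL RA gave the highest counts by sex, by air and at baseline. It left only mice 1 and 3 in that group, which had high Rn18s-rs5.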
